A study of Mus musculus with 4 samples.

Results

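The genes described here are 8 mouse genes of major histocompatibility complex (MHC) class II antigen presentation, out of 23462 genes that could be named on the arrays. They were chosen by symbol, and every probe whose transcript accession maps to H2-Aa, H2-Ab1, H2-Eb1, H2-DMa, H2-DMb1, H2-Ob, Cd74 or Ciita was taken, which gave 14 probes. Liver RNA of male mice on a C57BL/6 background was measured at 24 weeks of age on 4 1-colour Agilent arrays. The mice either carried floxed Lpiat1 alleles alone (F/F) or the same alleles together with Alb-Cre (LKO), and both genotypes were fed chow (CE2) or a high fat diet (HFD-60, here HFD) for 18 weeks from 6 weeks of age. The floxed alleles are therefore common to all groups. Cre driven by the albumin promoter acts in hepatocytes, so that leukocytes and endothelial cells of LKO liver keep Lpiat1, which is also named Mboat7. Each of the 4 conditions was measured on 1 array, without replicates, and neither the labels nor the methods tell if that RNA came from a single mouse or a pool. Every difference below is therefore given without a test and without a replicate error.

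Class II molecules present peptides from engulfed material to CD4+ T cells. An α and a β chain pair in the endoplasmic reticulum with the invariant chain, which fills the peptide groove and carries the complex to endosomes. There proteases cut the invariant chain down to a short peptide, and the DM heterodimer exchanges that remnant for an antigen peptide, while the DO heterodimer holds DM back. In liver the pathway is known from dendritic cells, B cells, Kupffer cells and other macrophages, and to a lesser degree from sinusoidal endothelium. The coactivator CIITA, which binds no DNA itself, turns on the class II genes through proteins bound at a conserved X box and Y box of their promoters.

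All 8 genes were brighter on the LKO HFD array than on the F/F HFD array, and 6 of them differed at least 2-fold. Of all genes measured in this comparison, 2.36% reached 2-fold higher and 1.91% reached 2-fold lower. On chow the order was turned: 7 of the 8 genes were dimmer in LKO, none by as much as 2-fold, and Ciita alone was brighter. Of all genes with a value, 7132 of 15528 were higher in LKO on HFD, and 7379 of 14981 were lower in LKO on chow. From chow to HFD all 8 genes were at least 2-fold higher in LKO, where 8.12% of all genes were, and 1 gene in F/F, where 5.21% were. That gene was Ciita, by 1 of its 2 probes, and with normexp background correction the counts were 7 and 0.

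Promoters of class II genes are known for the X and Y box letters, and stretches of 4 of them are shown so that the letters they share can be read side by side. RefSeq promoters, 250 bases before to 50 bases after each start site in GRCm38.p6, were at hand for H2-Aa, H2-Eb1, H2-DMa, H2-DMb1 and H2-Ob, 6 promoters in all since H2-DMa has 2. The Y box core CCAAT, searched on both strands, was in 5 of the 6 and in 37.4% of all 32851 promoters. The longer letters TGATTGG, chosen after the sequences were seen and overlapping CCAAT on the other strand, were in 4 of the 6 and in 7.82% of all promoters. The X box core AGCAAC was in 2 of the 6 and in 14.8% of all, and AGCAAC followed by ATTGG on the same strand was in the same 2 and in 1.92% of all. Capitals mark TGATTGG and AGCAAC, each stretch runs 5′ to 3′ on the gene's strand, and the positions are chr17:34287847-34287928 on the minus strand for H2-Aa and chr17:34305751-34305832, chr17:34153073-34153154 and chr17:34238791-34238872 on the plus strand for H2-Eb1, H2-DMb1 and H2-Ob.
H2-Aa: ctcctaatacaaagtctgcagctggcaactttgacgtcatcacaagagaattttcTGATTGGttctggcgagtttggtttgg
H2-Eb1: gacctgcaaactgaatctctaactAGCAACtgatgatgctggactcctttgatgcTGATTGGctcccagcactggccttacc
H2-DMb1: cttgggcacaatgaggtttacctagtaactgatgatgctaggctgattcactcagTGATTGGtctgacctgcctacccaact
H2-Ob: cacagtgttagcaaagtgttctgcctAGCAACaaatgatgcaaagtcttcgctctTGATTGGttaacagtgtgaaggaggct
TGATTGG begins 50 bases before the start site in H2-Aa, 61 in H2-Eb1, 63 in H2-DMb1 and 59 in H2-Ob, so that the 4 promoters hold it at a similar distance. AGCAAC begins 92 bases before the start site in H2-Eb1 and 88 in H2-Ob. A match is a description of letters and not a measured binding site. Only exact letters were searched, so an X box or Y box with other letters would be missed. Neither H2-DMa promoter holds TGATTGG or AGCAAC in these windows.

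**Figure D1:**
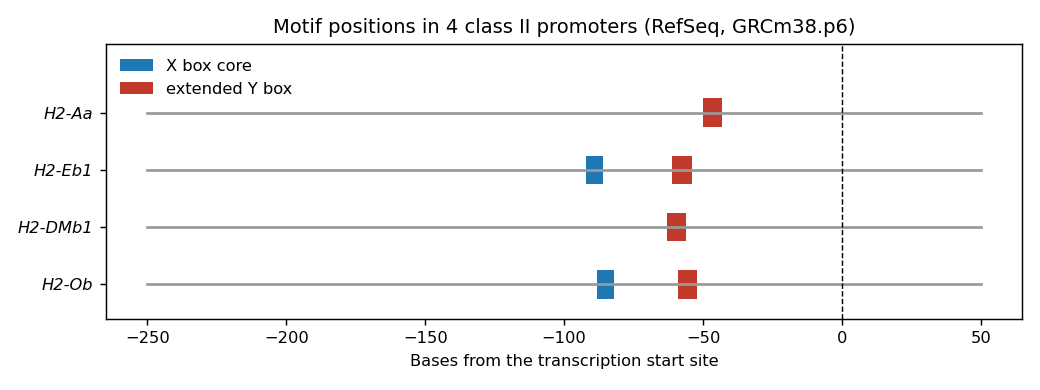
Positions of the X box core (blue, AGCAAC) and the extended Y box (red, TGATTGG) in the promoters of H2-Aa, H2-Eb1, H2-DMb1 and H2-Ob, in bases from the transcription start site (dashed line), on a window of 250 bases before to 50 bases after it. The extended Y box begins between 50 and 63 bases before the start site in all 4, and H2-Eb1 and H2-Ob also hold the exact letters AGCAAC. An X box with other letters would not be marked.

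Signals below are the intensities that the extraction software gave after subtracting background, always with the chow arrays of F/F and LKO first and the HFD arrays of F/F and LKO after them. Differences are on the log2 scale and relative to the 75th percentile of the spots on each array, which stood at 222, 213, 263 and 296. A probe not called well above background on an array has only a bound there, or no value. On every array at least 53.0% of the spots were well above background, and no spot was saturated. All 4 arrays lay on 1 slide. The spread of replicate spots within an array gave a technical SD of 0.093 for the difference of 2 spots of one probe (294 probes well above background), and it leaves out the differences between mice. By a probe's mean signal over the 4 arrays, this SD was 0.073 over 1000 and 0.13 for 100 to 1000. It was 0.23 for 30 to 100 and 0.41 below 30, although these last 2 rest on 4 and 6 probes. The targeted gene Mboat7 was dimmer in LKO on both diets, by -0.30 on chow and -0.27 on HFD, by a probe that could not be placed inside or outside the floxed exons. The label liver was borne out by 8 of 8 hepatocyte markers well above background on all arrays, with Alb between 221091 and 231569.

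The classical chains form the class II molecule itself. H2-Aa, the α chain of I-A, had signals of 479, 329, 856 and 2252. It was dimmest on the LKO chow array and brightest on the LKO HFD array. LKO minus F/F was -0.48 on chow and 1.23 on HFD, a 2.34-fold difference on HFD. H2-Ab1, the β chain that pairs with it, had signals of 4620, 3199, 8028 and 19443 by its brightest probe, the same order of arrays. LKO minus F/F was -0.47 on chow and 1.11 on HFD for this probe. The other 3 probes of H2-Ab1 ranked the arrays in the same way. Over the 4 probes, the difference lay between -0.61 and -0.40 on chow and between 1.11 and 1.36 on HFD, so the choice of probe moved the value but not its direction. H2-Eb1, the β chain of I-E, had signals of 3784, 2637, 7133 and 18196, again lowest on LKO chow and highest on LKO HFD. Its LKO minus F/F values were -0.47 on chow and 1.18 on HFD. C57BL/6 mice are known to lack the α partner of I-E, and no probe was matched to H2-Ea here.

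Cd74 encodes the invariant chain. Its signals were 1866, 1335, 2930 and 7499, in the same order of arrays as the chains it escorts. LKO minus F/F was -0.43 on chow and 1.19 on HFD, a 2.28-fold difference on HFD. From chow to HFD it was 0.40 higher in F/F and 2.02 higher in LKO.

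The DM genes encode the peptide exchange factor. H2-DMa had signals of 95.0, 71.2, 202 and 479 by the probe that was well above background. LKO minus F/F was -0.36 on chow and 1.08 on HFD. H2-DMb1 had signals of 340, 248, 722 and 1836, with -0.40 on chow and 1.18 on HFD. Both DM subunits thus ranked the arrays as the classical chains did, and HFD minus chow in F/F was 0.84 for each. The other probe of H2-DMa was not well above background on any array and gives no value.

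**Figure D2:**
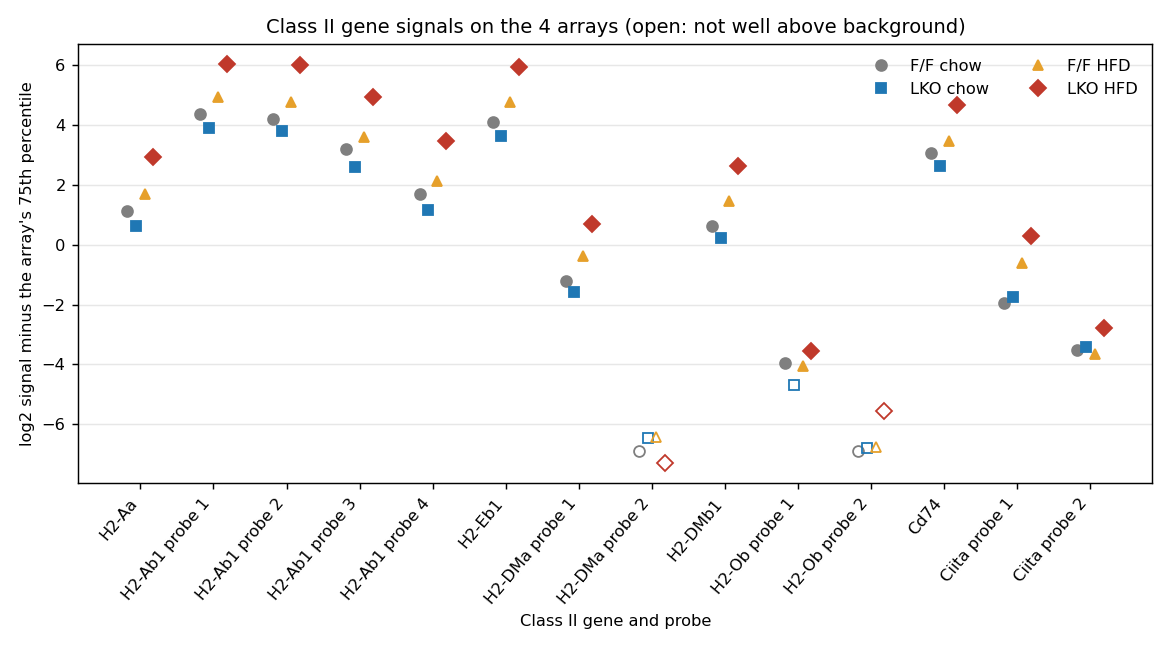
Signal of each of the 14 class II probes on each array, as log2 intensity minus the 75th percentile of that array; each point is 1 array, and an open symbol is a probe not well above background there. Of the 11 probes well above background on all 4 arrays, all are highest on LKO HFD, and 9 follow the order LKO chow, F/F chow, F/F HFD, LKO HFD from low to high (levels of different probes cannot be compared). These 9 probes belong to 6 genes, and 4 of them read H2-Ab1. The share of all probes with this highest array or this order was not counted.

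H2-Ob, the β chain of the DM inhibitor DO, was near the limit of detection. Its brighter probe had signals of 14.2, 8.33, 15.8 and 25.0 and was not well above background on LKO chow. LKO minus F/F was 0.49 on HFD, close to the technical SD of 0.41 at this brightness, and a bound of -0.72 on chow. With normexp background correction these values were 0.094 and -0.10. Its other probe was not well above background on any array. Of the chains outside the 8 genes, 3 of 4 had a probe, none of them well above background on all arrays. The α partner H2-Oa, read beside it, had signals of 8.94 (not well above background), 9.82, 17.0 and 33.8 and a LKO minus F/F value of 0.83 on HFD.

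Ciita, the coactivator of the class II promoters, had signals of 57.5, 64.0, 174 and 358 by its brighter probe. It was the only member not lower in LKO on chow, where the difference was 0.21. That is below the technical SD of 0.23 for probes of 30 to 100, the range of its 2 chow signals. It is above the SD of 0.13 for probes of 100 to 1000, the range of its mean signal over the 4 arrays. On HFD the difference was 0.87. The dimmer probe, with signals of 19.4, 19.8, 21.1 and 43.1, gave nearly the same genotype values, 0.08 on chow and 0.86 on HFD. The diet values of the 2 probes did not match. From chow to HFD in F/F, the brighter probe gave 1.35 and the dimmer -0.12, and in LKO they gave 2.01 and 0.65. The diet difference of Ciita in F/F therefore rests on 1 probe, while its higher signal on LKO HFD than on F/F HFD was read by both.

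Between the genotypes most of the 8 genes differed by similar amounts. For the 6 genes other than H2-Ob and Ciita, a group set apart after the values were seen, LKO minus F/F lay between -0.48 and -0.36 on chow and between 1.08 and 1.23 on HFD. With normexp background correction the ends of these ranges were -0.54 and -0.20 on chow and 0.86 and 1.27 on HFD. The medians over all 8 genes were -0.45 on chow and 1.14 on HFD. The median over all genes with a value was 0.0033 on chow and -0.032 on HFD. On chow 0 of the 8 genes differed at least 2-fold, against a background of 1.11% of genes higher and 1.03% lower. With a 1.5-fold limit the chow count was 1, H2-Ob by its bound, against 3.46% of genes lower. On HFD the 6 genes at least 2-fold higher were the 3 classical chains, both DM subunits and Cd74, and 0 of the 8 reached 4-fold, against 0.341%. With normexp background correction the 2-fold count was 5, since H2-DMa was then at 0.86.

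The diet difference varied more from gene to gene. In F/F, HFD minus chow had a median of 0.63 over the 8 genes, and 1 gene, Ciita, was at least 2-fold higher, against a background of 5.21% of genes higher and 2.94% lower. With a 1.5-fold limit the count in F/F was 5 (H2-Aa, H2-Eb1, both DM subunits and Ciita) against 13.2%, and at 4-fold it was 0 against 0.886%. The 6 genes lay between 0.40 and 0.84, and H2-Ob differed by -0.09, within its technical spread. In LKO the median was 2.21, and all 8 genes were at least 2-fold higher, H2-Ob by a bound of 2.17-fold, against a background of 8.12% of genes higher and 4.07% lower. At 4-fold the count was 7, all but H2-Ob, against 1.37%. Of these, Ciita was at 4.03-fold by its brighter probe alone, and with normexp background correction Ciita and H2-DMa, at log2 differences of 1.36 and 1.66, were below 4-fold. The 6 genes were between 4.05-fold and 5.34-fold brighter on HFD in LKO. The medians over all genes were -0.024 in F/F and -0.075 in LKO. Both diet comparisons share arrays with the genotype comparisons and are no independent evidence of them.

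**Figure D3:**
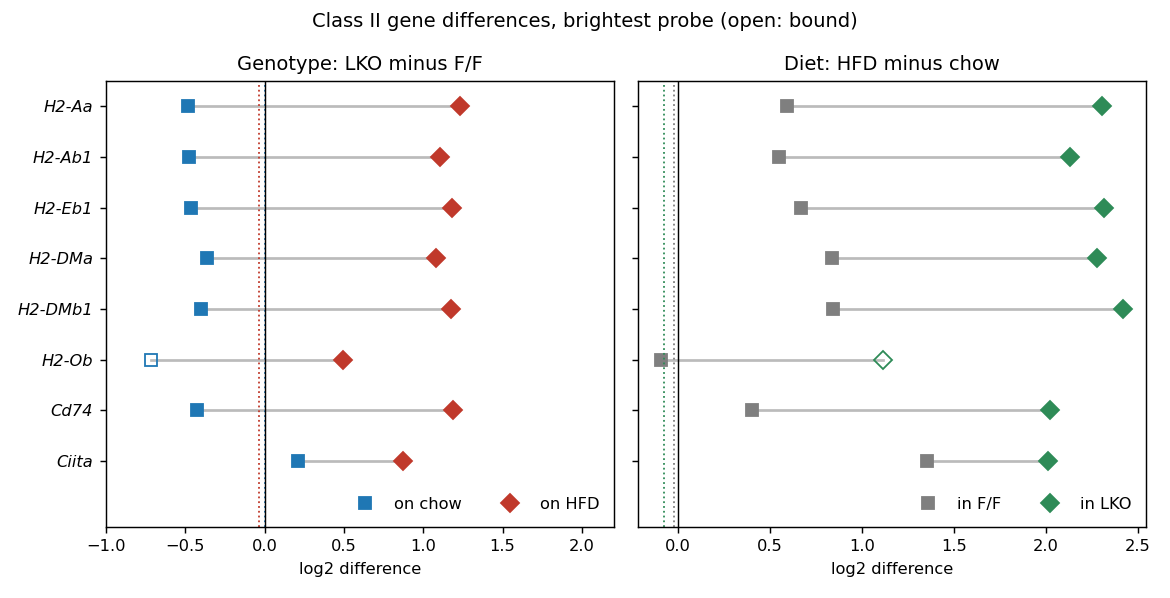
Log2 differences of the 8 class II genes by their brightest probe, LKO minus F/F on chow and HFD (left) and HFD minus chow in F/F and LKO (right); dotted lines are the medians over all genes, open symbols are bounds, and each point rests on 1 array per condition. Genotype differences of the 3 classical chains, both DM subunits and Cd74 lie between -0.48 and -0.36 on chow and between 1.08 and 1.23 on HFD, and their diet differences between 0.40 and 0.84 in F/F and between 2.02 and 2.42 in LKO.

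The other genes of the pathway were taken as whole lists. Among proteases and other proteins of antigen and invariant chain processing, 8 of 10 were higher in LKO on HFD and 0 at least 2-fold, with a median of 0.32. The nearest to the members was Ctss, cathepsin S, which trims the invariant chain in professional antigen-presenting cells. It had signals of 3727, 3663, 7280 and 15444, so F/F and LKO were close on chow (0.03) and LKO was 0.92 higher on HFD. Ifi30, a lysosomal thiol reductase that opens disulfide bonds of antigens, differed by 0.74 on HFD and 0.02 on chow. Lgmn, the asparaginyl endopeptidase legumain, differed by 0.63 and 0.02. By their brightest probes all 10 genes of this list were higher in LKO on chow, with a median of 0.10, whereas 7 of the 8 members were lower. The chow values of Ctss, Ctsh, Lgmn and Ifi30, 0.03, 0.03, 0.02 and 0.02, were below the technical SD of 0.073 to 0.13 at their signals. A dimmer probe of Ctsh gave -0.13 and one of Sppl2a -0.17, while the other dimmer probes of the list were higher.

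The DNA-bound factors that CIITA joins were mixed on HFD. Of 7 genes for RFX, NF-Y and CREB1, 3 were higher and 4 lower in LKO on HFD, with a median of -0.026, and on chow 2 were higher and 5 lower, with a median of -0.052. Rfxap, a subunit of RFX, had the signs of most members by its only probe, at -0.32 on chow and 0.32 on HFD. Creb1 had these signs by its brightest probe, at -0.13 and 0.23, but its 4 probes did not read alike. Its dimmer probes gave -0.35 and 0.27, 0.34 and 0.27, and 0.089 and -0.24 on chow and HFD. In the interferon gamma pathway, a known inducer of Ciita, 7 of 8 genes were higher in LKO on HFD with a median of 0.21, and 6 of the 7 genes with a value were lower on chow with a median of -0.39. Irf1 had signals of 2305, 1570, 1396 and 2257 and differed by -0.50 on chow and 0.53 on HFD. Its sign on each diet was that of the classical chains, but its F/F signal was lower on HFD than on chow, the reverse of theirs. Ifng itself was detected above background only in LKO on HFD, by 1 probe with a signal of 10.4. The lowest signal well above background on that array was 7.81. LKO minus F/F of Ifng on HFD is therefore a bound of 0.15, below the technical SD of 0.41 at this brightness. Of the costimulatory and related surface genes, 5 of 5 with a value were higher in LKO on HFD, with a median of 0.60 and 0 at least 2-fold. Cd86, a ligand of CD28, differed by 0.63 on HFD and 0.045 on chow. From chow to HFD the costimulatory median was 0.61 in F/F and 1.44 in LKO, against 0.32 and 0.28 for the processing genes.

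MHC class I genes served as a contrast, because nucleated cells in general present on class I. Of 10 genes with a value, 6 were higher and 4 lower in LKO on HFD, with a median of 0.10, and the largest difference was 0.37. H2-K1, a class I heavy chain, differed by 0.03 on HFD and B2m, the light chain, by -0.06. On chow the class I median was 0.028. From chow to HFD the class I median was 0.094 in F/F and 0.28 in LKO, and whether the class I and class II genes differ was not tested.

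Markers of the cells that carry class II were read beside the members, and on chow their lists went in both directions. In bulk liver RNA, more cells of a type and more RNA per cell cannot be told apart. Ptprc (CD45), the marker of all leukocytes, had signals of 232, 209, 396 and 684 and differed by -0.10 on chow and 0.62 on HFD. Relative to Ptprc on the same arrays, the class II median was 0.52 on HFD and -0.35 on chow. A second, dimmer probe of Ptprc gave 0.47 on HFD but 0.46 on chow, and relative to it the class II median was 0.68 on HFD and -0.91 on chow. For HFD minus chow, the class II median was 0.11 in F/F and 0.96 in LKO relative to the brighter probe, and -0.068 and 1.51 relative to the dimmer, so that even the sign in F/F depends on the probe taken. All 14 Kupffer cell and macrophage markers were well above background on every array. Of these, 12 were higher in LKO on HFD, with a median of 0.70, and on chow 9 were higher and 5 lower, with a median of 0.016. From chow to HFD their median was 0.40 in F/F and 1.05 in LKO. Their summed signal, in multiples of each array's 75th percentile, was 147, 141, 195 and 267. Marco and Timd4, markers of resident Kupffer cells, were the only ones lower in LKO on HFD, by -1.64 and -0.95. Clec4f, Vsig4 and Cd5l of the same list were higher by 0.31, 0.69 and 0.68.

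Among 11 dendritic cell markers, 8 of 9 with a value were higher in LKO on HFD, with a median of 0.43, and on chow 3 were higher and 5 lower, with a median of -0.18. Xcr1 and Irf4 were not well above background on any array. Itgax (CD11c), also found on macrophages, had signals of 23.0, 28.6, 157 and 491. It was 1.48 higher in LKO on HFD and 0.37 higher on chow. Flt3, the receptor for the growth factor of dendritic cells, had signals of 18.3, 11.2, 20.7 and 49.0, with -0.65 on chow and 1.08 on HFD. It took the members' direction on both diets, at signals where the technical SD was 0.41. The summed signal of the list, 70.5, 73.0, 61.0 and 60.9, was set by 1 bright and flat probe of Siglech. Of 10 B cell markers, 5 of 7 with a value were higher in LKO on HFD, with a median of 0.29, while all 6 with a value were lower on chow, with a median of -0.036, well within the technical SD of 0.23 to 0.41 at these signals. Cd79a and Blk were not well above background on any array, and the summed signal was 1.18, 1.14, 1.42 and 1.70.

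Of 4 monocyte markers, all were higher in LKO on HFD, with a median of 0.58, and 3 on chow, with a median of 0.25. T and NK cell markers had a median of 0.89 on HFD (8 of 9 higher) and of -0.27 on chow (8 of 8 lower), where Ncr1 was not well above background on any array. Sinusoidal endothelium markers had medians of 0.11 and 0.086 on HFD and chow. Hepatocyte markers had medians of -0.19 and -0.0086. The part of any cell type in the class II values was not tested.

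**Figure D4:**
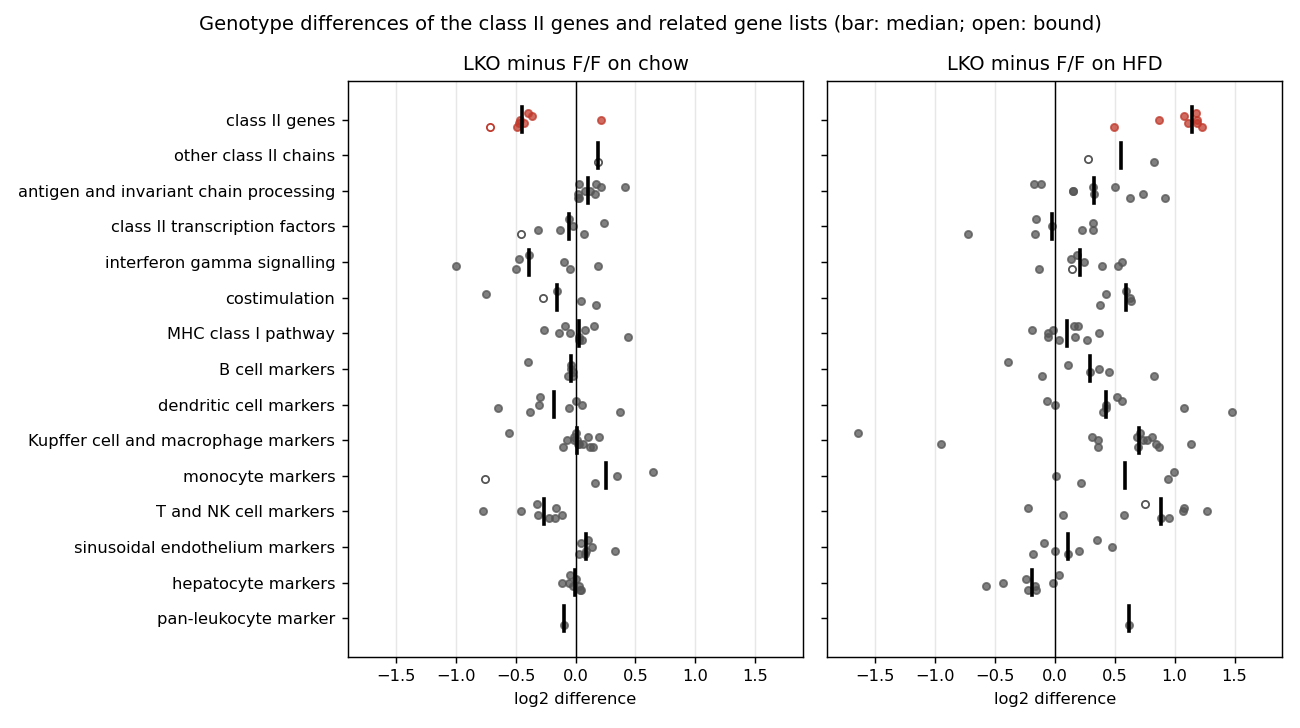
LKO minus F/F in log2 units for each gene of the class II group (red) and of 14 related lists (grey), on chow (left) and HFD (right); each point is 1 gene by its brightest probe, open points are bounds, and black bars are medians. The class II median was -0.45 on chow and 1.14 on HFD, against 0.028 and 0.10 for the MHC class I pathway and 0.016 and 0.70 for Kupffer cell and macrophage markers. Other lists shared the class II signs, with -0.27 and 0.89 for T and NK cell markers and -0.39 and 0.21 for interferon gamma signalling. So did costimulation (-0.16 and 0.60), dendritic cell markers (-0.18 and 0.43), B cell markers (-0.036 and 0.29) and Ptprc (-0.10 and 0.62). Each remaining list had the same sign on both diets.

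The genes outside the group whose 4 values lay nearest to the members' mean profile were sought over 13974 genes detected above background on each of the 4 arrays. The measure was the root mean square difference of log2 values, each gene centred on its mean over the 4 arrays, and 7 members, all but H2-Ob, made the profile. Fcgr1, the high-affinity receptor for IgG, was nearest at 0.056, with signals of 80.9, 64.5, 180 and 422. It was followed by Gzmb (granzyme B) at 0.078, Ly9 (a SLAM family receptor) at 0.087, Cd8b1 (the β chain of CD8) at 0.089 and Gzma (granzyme A) at 0.091. Cd8b1 is also in the T and NK cell list. Gzmb, Ly9 and Cd8b1 were dim, with signals of 10.6 to 61.2, 14.4 to 85.7 and 17.5 to 108. At their mean brightness the technical SD was 0.23 to 0.41, larger than the distances ranked. For Fcgr1 and Gzma it was 0.13, also larger than their distances, so the order of the 5 genes lies within technical spread. In all 5 the LKO chow array was lowest and the LKO HFD array highest, which follows from their choice by this profile. The members themselves lay between 0.042 (H2-DMa) and 0.24 (Ciita) from their own mean. With 4 points per gene, such a likeness is a description only.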

How the data were processed

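Per the labels and file headers, the authors deposited the intensity of every spot from Agilent Feature Extraction 12.0.3.1, background-subtracted and detrended within each array, with spot and local background medians and flags. A deposited table held the same intensities times 1 factor per array (2.10 to 2.63), with an unstated basis. Its medians were 34.5 (F/F) and 33.2 (LKO) on chow, and 36.1 (F/F) and 36.0 (LKO) on HFD, and it was neither logged nor gene-centred.

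From the deposited intensity, log2 minus the 75th percentile of 59305 spots that are not controls was computed with Python 3.11.15, numpy 2.4.6 and pandas 2.3.3. Spots of a probe were averaged without outliers (76 to 132 spots per array). Of 56605 probes, 33767 matched a gene through RefSeq accessions (GRCm38.p6 table), and the brightest probe stood for a gene. A gene below background on 1 array was set to the higher of its own signal and the lowest signal well above background there, and one below on both has no value. A gene also has no value where that level was not below its scaled signal on the other array, as for Icosl. Bounds therefore point only toward the array where the gene was detected, and counts of genes with a value leave the rest out. With 1 array per group no test was made, and the number of arrays limits the precision. Members and lists were chosen with earlier results of these data known. The genes named by rule are all members, genes of the pathway lists, the 5 nearest in profile and Mboat7. Individual markers of cell types were chosen after their values were seen. Alternatives were normexp correction (limma 3.58.1, R 4.3.3, offset 50) on median signals, quantile normalization, 2 other percentiles, the deposited table, the mean of probes, no floor, and 1.5-fold and 4-fold thresholds. The steps were tested on simulated data. Figures were drawn with matplotlib 3.10.9.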

Additional observations from a re-analysis of the deposited data

Results flagged for a closer look

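For 7 of the 8 genes the LKO minus F/F difference had opposite signs on chow and HFD, with the F/F sample above LKO on chow and below it on HFD. This difference was not tested, since each condition has 1 array. The share of all genes with such opposite signs was not counted. Taken singly, 7379 of 14981 genes were lower in LKO on chow, and 7132 of 15528 were higher in LKO on HFD. The HFD value exceeded the chow value by 1.71 log2 units for H2-Aa, 1.58 for H2-Ab1, 1.65 for H2-Eb1, 1.44 for H2-DMa, 1.58 for H2-DMb1 and 1.62 for Cd74. For H2-Ob it was 1.21, which rests on a bound, since its probe was not well above background on LKO chow.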

How the results depend on the processing

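No single-gene difference changed sign in 223 values computed under 7 alternatives, and 201 of them moved by less than the technical SD of 0.093. Many of these values could not move, so the counts overstate how far the processing was varied. The deposited table differs by 1 factor per array, which the scaling removes, and leaving out filter and floor changed no member value. The mean of probes could move only H2-Ab1 and Ciita, the members with more than 1 usable probe. Normexp background correction moved the dim genes most, with H2-Ob at 0.094 and H2-DMa at 0.86 for LKO minus F/F on HFD, and gave H2-Ob no value for HFD minus chow in LKO. Relative to Ptprc, a choice made after the data were seen, the medians were -0.35 and 0.52 for LKO minus F/F on chow and HFD, and 0.11 and 0.96 for HFD minus chow in F/F and LKO. Relative to its second, dimmer probe they were -0.91, 0.68, -0.068 and 1.51 in the same order, which turns the sign of the diet median in F/F. The median of HFD minus chow in LKO was 2.31 with quantile normalization. At 1.5-fold, 1 gene differed between genotypes on chow and 5 between diets in F/F. At 4-fold, 0 genes differed between genotypes on HFD and 0 between diets in F/F. The count of 1 for diet in F/F became 0 with normexp and 0 with the mean of all probes, which follows from the disagreement of the Ciita probes in the latter case. Elsewhere the cause was not tested. Without filter and floor the median of all genes for HFD minus chow in LKO was -0.21. The limits are 1 array per condition, and signals below 100, where the spread of replicate spots is largest. No paired analysis was possible because there is a single array for each condition and no fit was made.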

Other observations

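For 2 marker genes the probes did not read alike. The brightest probe of Siglech, a marker of plasmacytoid dendritic cells, had signals between 14889 and 15948 on the 4 arrays, whereas its other probe was not well above background on any array. The brightest probe of Cd4 had signals between 3407 and 4183, and its other probe was not well above background on any array either. Which of the probes reads the named transcript was not tested.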
